A study of Mus musculus with 18 samples.

Results

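The 78 mouse genes whose symbols start with Mrpl or Mrps followed by a digit were taken from 33235 genes in liver RNA-seq tables by symbol alone, with 1 pseudogene symbol ending in -ps dropped. Of the 78, 51 encode proteins of the large subunit of the mitochondrial ribosome and 26 encode proteins of its small subunit. The last, Mrps36, carries the prefix but encodes a component of the alpha-ketoglutarate dehydrogenase complex. Mrps18a and Mrps30 are counted with the large subunit, where their proteins sit despite their names.

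Livers came from mice given an antisense oligonucleotide against Mdm2 (Mdm2ASO) or a control oligonucleotide (conASO), on 1 of the diets labelled HFHC and CDAHFD, in a study of diet-induced steatotic liver disease. Both oligonucleotides carried GalNAc, a sugar ligand that binds a receptor on hepatocytes and so directs uptake to those cells. The 4 groups were Mdm2ASO on HFHC (labelled MDM2 knockdown, 4 samples), conASO on HFHC (labelled WT, 4 samples), Mdm2ASO on CDAHFD (labelled MDM2 knockdown, 5 samples) and conASO on CDAHFD (labelled WT, 5 samples). The labels used here give no strain, age, sex, dose or duration, and do not say that each sample is a separate animal, so p-values measure the spread between these samples. The columns of Mdm2ASO replicates 6 and 7 on HFHC held identical values and were counted as 1 library, which leaves 3 Mdm2ASO and 4 conASO libraries on HFHC and 17 libraries in all.

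Mitochondrial ribosomes sit in the mitochondrial matrix and translate the few mRNAs of mitochondrial DNA, which encode core subunits of the respiratory chain and ATP synthase. Their rRNAs are encoded in mitochondrial DNA, whereas their proteins are all encoded in the nucleus, made in the cytosol and imported. Many of the proteins have bacterial counterparts, and others arose in the mitochondrial lineage. Liver is rich in mitochondria, and the hepatocyte is its main parenchymal cell. Mdm2 is the ubiquitin ligase that keeps p53 low.

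Libraries held 17770748 to 18798144 counted reads on HFHC and 22376178 to 31453055 on CDAHFD. Mdm2, the targeted transcript, averaged 362 ± 58.2 in Mdm2ASO libraries and 945 ± 25.6 in conASO libraries on HFHC (deposited normalized values, SD, n = 3 and 4). On CDAHFD it averaged 647 ± 124 in Mdm2ASO libraries and 1565 ± 87.7 in conASO libraries (SD, n = 5 each). The groups did not overlap on either diet, and a two-sided exact permutation test gave p = 0.0571 on HFHC, the smallest value its 35 regroupings allow here, and p = 0.00794 on CDAHFD, the smallest that 252 allow. All values below are on the scale of the deposited tables, which were normalized separately for each diet, so levels are not compared between diets.

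On HFHC, transcripts for proteins of the mitochondrial ribosome were lower in Mdm2ASO livers across both subunits. Of 77 members tested, 31 (40.3%) fell and 0 rose in limma at an adjusted p under 0.05, against 13.8% of all 17441 tested genes that fell and 16.8% that rose. At an unadjusted p under 0.05 there were 39 members (50.6%), against 41.2% of all tested genes, and edgeR and DESeq2 also gave 0 risen members. The median log2 fold change of the members was -0.23, beside -0.01 for all tested genes, and 72 of the 77 had a negative value. In 39 members every Mdm2ASO library lay below every conASO library, a pattern seen in 18.0% of all tested genes, and in 1 member, Mrpl3, every Mdm2ASO library lay above, seen in 20.7%. Mrpl53 was listed at 0 in every library of both diets and was not tested.

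The fold changes were moderate, with the lowest at -0.69 and the highest at 0.20 on the log2 scale. In the large subunit 23 of 50 tested members fell (46.0%), with a median of -0.22. In the small subunit 8 of 26 fell (30.8%), with a median of -0.23. Large-subunit members with a bacterial homologue (14 of 30 fell, median -0.22) and those specific to mitochondria (9 of 20 fell, median -0.24) had similar medians. Among small-subunit members, 5 of 16 with a bacterial homologue fell (median -0.24), as did 3 of 10 specific to mitochondria (median -0.15). Mrps18a and Mrps18b were counted with those specific to mitochondria, although they are paralogues of Mrps18c, which was counted as having a bacterial homologue. No test of a difference between these classes was made. Of the 38 members with the higher mean values, 23 fell (median -0.29), and of the 39 with the lower mean values 8 fell (median -0.18).

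**Figure D1:**
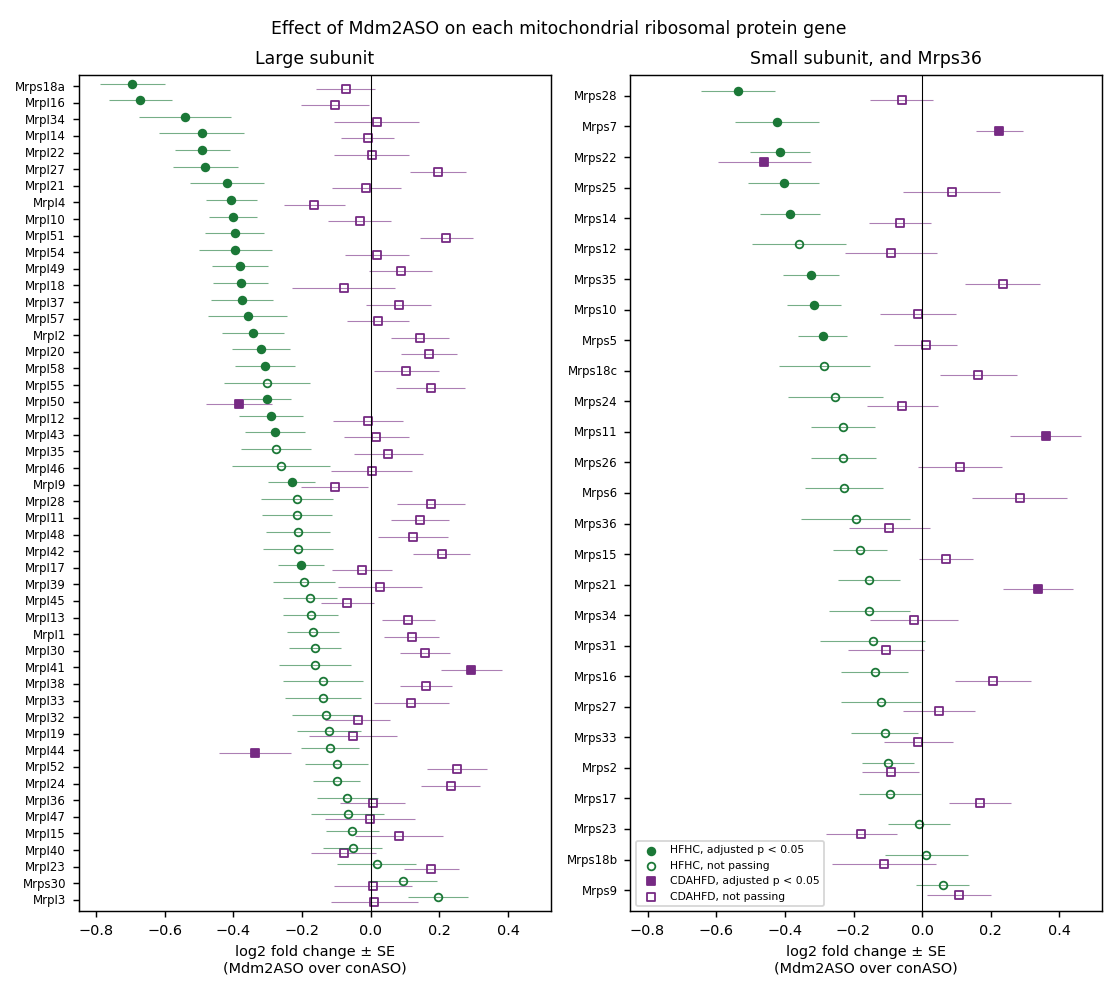
Log2 fold change (Mdm2ASO over conASO, ± SE) of each of the 77 tested members, ordered by the HFHC value, with large-subunit members on the left and small-subunit members and Mrps36 on the right. Circles are HFHC and squares CDAHFD, and filled symbols passed an adjusted p of 0.05 in limma. All 31 filled circles lie left of 0, and the 7 filled squares lie on both sides.

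Mrps18a, one of several mammalian homologues of a bacterial small-subunit protein and located in the large subunit, had values of 371, 396 and 463 in Mdm2ASO libraries, against 698, 657, 675 and 618 in conASO libraries on HFHC. The groups were well separated, with the highest Mdm2ASO library below the lowest conASO library. Its level averaged 410 ± 47.2 in Mdm2ASO and 662 ± 33.9 in conASO libraries, a log2 fold change of -0.69 (SE 0.09, limma adjusted p = 0.000473). Mrpl16, the counterpart of a bacterial protein of the large-subunit core, had 438, 484 and 560 in Mdm2ASO libraries, against 799, 787, 807 and 741 in conASO libraries. Here too no library of one group reached the other, and the log2 fold change was -0.67 (SE 0.09, limma adjusted p = 0.000563).

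The promoters of Mrps18a and Mrpl16 are shown because these 2 members fell with the smallest p-values. They are given 5′ to 3′ on the gene's strand, from 250 bases before to 50 bases after the RefSeq start (build GRCm38.p6), at chr17:46110754-46111053 (+) and chr19:11770165-11770464 (+). Capitals mark matches on either strand to 5 motifs, NRF1 (GCGC, then any 2 bases, then GCGC), ETS or GABPA (CCGGAAG), YY1 (AAGATGGC), the E-box (CACGTG) and the CCAAT box (CCAAT), none of which contains another.
Mrps18a: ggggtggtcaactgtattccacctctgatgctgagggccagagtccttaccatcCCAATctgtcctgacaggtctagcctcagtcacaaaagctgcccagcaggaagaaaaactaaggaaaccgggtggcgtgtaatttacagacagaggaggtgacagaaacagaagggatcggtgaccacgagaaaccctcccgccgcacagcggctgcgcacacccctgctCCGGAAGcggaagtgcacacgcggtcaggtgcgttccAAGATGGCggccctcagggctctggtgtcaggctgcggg
Mrpl16: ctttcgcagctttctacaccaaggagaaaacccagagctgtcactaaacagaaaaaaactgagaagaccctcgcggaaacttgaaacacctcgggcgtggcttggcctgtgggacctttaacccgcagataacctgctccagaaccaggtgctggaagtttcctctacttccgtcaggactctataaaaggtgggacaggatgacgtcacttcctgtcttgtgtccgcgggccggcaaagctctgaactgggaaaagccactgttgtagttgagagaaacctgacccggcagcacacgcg
In Mrps18a the CCAAT match began 196 bases before the start, the ETS match 26 bases before it and the YY1 match 12 bases after it. In Mrpl16 none of the 5 motifs was found in this window.

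A promoter entry was found for 69 of the 78 members and for 27025 genes in all. The ETS motif was present for 26 members (37.7%) and for 9.93% of all genes with an entry. NRF1 is a regulator of nuclear genes for mitochondrial proteins, and its motif was present for 14 members (20.3%) and 7.00% of all genes. The YY1 motif was present for 12 members (17.4%) and 3.19% of all genes. The E-box was present for 5 members (7.25%) and 8.09% of all genes, and the CCAAT box for 27 members (39.1%) and 41.1% of all genes. Within the members, the ETS motif was present for 12 of the 27 that fell on HFHC (44.4%) and 13 of the 41 that did not pass (31.7%). The NRF1 motif was present for 5 of those 27 (18.5%) and 9 of those 41 (22.0%), and the YY1 motif for 4 (14.8%) and 8 (19.5%). The E-box was found for 3 of those 27 (11.1%) and 2 of those 41 (4.88%), and the CCAAT box for 8 (29.6%) and 18 (43.9%). These shares describe letters in a fixed window, and no test was made on them.

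Mrpl22 and Mrpl4, whose bacterial counterparts line the tunnel through which the new chain leaves the ribosome, both fell on HFHC. Mrpl22 had 297, 300 and 319 in Mdm2ASO libraries, against 448, 424, 441 and 405 in conASO libraries. Mrpl4 had 658, 731 and 713 in Mdm2ASO libraries, against 874, 978, 916 and 947 in conASO libraries. For both genes all 3 Mdm2ASO libraries lay below all 4 conASO libraries. The log2 fold change was -0.49 for Mrpl22 (SE 0.08, limma adjusted p = 0.00161) and -0.41 for Mrpl4 (SE 0.07, limma adjusted p = 0.00296). Mrpl27, whose bacterial counterpart reaches towards the peptidyl transferase centre, had 586, 672 and 657 in Mdm2ASO libraries, against 868, 1005, 910 and 791 in conASO libraries. Its groups were also apart, and its log2 fold change was -0.48 (SE 0.10, limma adjusted p = 0.00454).

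The stalk of the large subunit, where translation factors dock, is built from Mrpl10, Mrpl11 and Mrpl12. Mrpl10, which anchors the stalk, had 735, 793 and 811 in Mdm2ASO libraries, against 1018, 1063, 1046 and 991 in conASO libraries on HFHC. It fell without overlap between groups, with a log2 fold change of -0.40 (SE 0.07, limma adjusted p = 0.00215). Mrpl12, the flexible stalk protein, had 1122, 1322 and 1455 in Mdm2ASO libraries, against 1504, 1660, 1601 and 1564 in conASO libraries. It fell with a log2 fold change of -0.29 (limma adjusted p = 0.0411), a call that was lost in 8 of 17 alternatives. Mrpl11, at the stalk base, averaged 432 ± 50.1 in Mdm2ASO and 501 ± 37.7 in conASO libraries, with overlapping groups, a log2 fold change of -0.22 and a limma adjusted p of 0.141.

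Mrpl58, a peptidyl-tRNA hydrolase built into the ribosome that acts on stalled complexes, averaged 412 ± 19.9 in Mdm2ASO and 511 ± 37.6 in conASO libraries on HFHC. It fell with a log2 fold change of -0.31 (limma adjusted p = 0.0238) and did not overlap, and this call was lost in 6 of 17 alternatives. Mrpl3, the counterpart of a core bacterial protein, had 383, 420 and 427 in Mdm2ASO libraries, against 331, 379, 352 and 371 in conASO libraries. It had the highest log2 fold change of the members on HFHC, 0.20 (limma adjusted p = 0.121), and passed as a rise (adjusted p = 0.0329) when values were scaled to library totals. Mrps30, a large-subunit protein specific to mitochondria, averaged 436 ± 54.8 in Mdm2ASO and 407 ± 22.0 in conASO libraries (log2 fold change 0.09, limma adjusted p = 0.513). Mrpl41 had a log2 fold change of -0.16 (limma adjusted p = 0.280) and Mrpl44, which has an RNase III-like fold, one of -0.12 (limma adjusted p = 0.317).

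In the small subunit, Mrps28 had the smallest p-value on HFHC and was chosen for display after its values were seen. It had 233, 281 and 301 in Mdm2ASO libraries, against 430, 387, 386 and 368 in conASO libraries. The groups did not overlap, and the log2 fold change was -0.54 (SE 0.11, limma adjusted p = 0.00508). Mrps22, a protein specific to mitochondria whose human gene is mutated in severe infantile mitochondrial disease, had 205, 207 and 214 in Mdm2ASO libraries, against 269, 286, 288 and 269 in conASO libraries. The Mdm2ASO libraries were tightly grouped below the conASO libraries, and the log2 fold change was -0.41 (SE 0.09, limma adjusted p = 0.00632). Mrps12, which lies at the decoding centre, averaged 341 ± 78.9 in Mdm2ASO and 431 ± 24.4 in conASO libraries, with a log2 fold change of -0.36 and a limma adjusted p of 0.0784. Mrps36, the member that is no ribosomal protein, averaged 121 ± 23.3 in Mdm2ASO and 137 ± 14.5 in conASO libraries (log2 fold change -0.19, limma adjusted p = 0.395).

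The 3 Mrps18 paralogues differed in their values on HFHC. Mrps18a fell, as given above. Mrps18c, the small-subunit homologue, averaged 210 ± 17.3 in Mdm2ASO and 258 ± 38.0 in conASO libraries (log2 fold change -0.29, limma adjusted p = 0.135). Mrps18b, also in the small subunit, averaged 468 ± 87.1 in Mdm2ASO and 459 ± 22.4 in conASO libraries (log2 fold change 0.01, limma adjusted p = 0.950). The difference between paralogues was not tested.

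The number of members called on HFHC moved with the scaling and with single libraries. With quantile normalization 49 members fell and the median of all tested genes shifted to -0.11, while 40.0% of all called genes were higher, against 55.0% with the deposited scaling. With scaling to library totals 16 fell and 1 rose, the median of all tested genes shifted to 0.10, and 69.8% of all called genes were higher. The members' median stayed 0.20 to 0.22 below the median of all genes under these scalings and with edgeR and DESeq2. Without Mdm2ASO replicate 9 on HFHC 19 members fell, without the library of replicates 6 and 7 there were 23, and without replicate 10 there were 41. Of the 17 members named here as fallen, the 11 that held in all 17 alternatives were Mrps18a, Mrpl16, Mrpl22, Mrpl10, Mrpl4, Mrpl27, Mrpl18, Mrpl34, Mrpl51, Mrps22 and Mrps28.

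On CDAHFD the members as a group lay close to the other genes. Of 77 tested, 4 rose (5.19%) and 3 fell (3.90%) in limma at an adjusted p under 0.05, against 6.12% of all 16803 tested genes that rose and 6.86% that fell. The median log2 fold change of the members was 0.02, with a lowest value of -0.46 and a highest of 0.36. In 1 member every Mdm2ASO library lay below every conASO library and in 5 members every one lay above, against 5.62% and 4.95% of all tested genes.

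The 4 that rose were Mrps11, Mrpl41, Mrps7 and Mrps21. Mrps11, a protein of the small-subunit platform, had 465, 541, 453, 442 and 441 in Mdm2ASO libraries, against 388, 380, 324, 325 and 411 in conASO libraries. The groups did not overlap, and the log2 fold change was 0.36 (SE 0.10, limma adjusted p = 0.0342). Mrpl41, a large-subunit protein specific to mitochondria, had 860, 823, 839, 768 and 744 in Mdm2ASO libraries, against 727, 610, 584, 651 and 726 in conASO libraries. It too was apart in every library, with a log2 fold change of 0.29 (SE 0.09, limma adjusted p = 0.0433). Mrps7, at the head of the small subunit, had 2137, 2228, 2238, 2057 and 2144 in Mdm2ASO libraries, against 1807, 1919, 1767, 1773 and 1991 in conASO libraries. Its groups did not overlap, and the log2 fold change was 0.22 (SE 0.07, limma adjusted p = 0.0445). Mrps21 averaged 1366 ± 171 in Mdm2ASO and 1080 ± 122 in conASO libraries, with overlapping groups and a log2 fold change of 0.34 (limma adjusted p = 0.0448).

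The promoters of Mrps11 and Mrpl41 are shown because these 2 members rose with the smallest p-values, from the same RefSeq table and with the same marks, at chr7:78782881-78783180 (+) and chr2:24975049-24975348 (-).
Mrps11: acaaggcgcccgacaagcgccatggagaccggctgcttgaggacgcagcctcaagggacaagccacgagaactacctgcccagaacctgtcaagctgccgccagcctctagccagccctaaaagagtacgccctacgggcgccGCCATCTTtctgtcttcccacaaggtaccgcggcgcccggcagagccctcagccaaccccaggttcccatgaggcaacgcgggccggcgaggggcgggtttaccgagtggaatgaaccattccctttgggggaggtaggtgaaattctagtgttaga
Mrpl41: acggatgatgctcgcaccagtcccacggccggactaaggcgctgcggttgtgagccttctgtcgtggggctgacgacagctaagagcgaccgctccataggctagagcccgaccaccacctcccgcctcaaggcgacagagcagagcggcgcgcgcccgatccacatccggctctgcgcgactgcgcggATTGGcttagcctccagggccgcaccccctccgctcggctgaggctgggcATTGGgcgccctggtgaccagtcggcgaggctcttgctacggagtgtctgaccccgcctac
The YY1 match in Mrps11 lay on the opposite strand and began 107 bases before the start. Mrpl41 held CCAAT matches on the opposite strand, beginning 61 and 11 bases before the start.

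The 3 that fell on CDAHFD were Mrpl50, Mrps22 and Mrpl44. Mrpl50, specific to mitochondria, had 755, 686, 694, 639 and 601 in Mdm2ASO libraries, against 879, 965, 948, 893 and 729 in conASO libraries. Only the highest Mdm2ASO library reached above the lowest conASO library, and the log2 fold change was -0.38 (SE 0.10, limma adjusted p = 0.0186). Mrps22 had 257, 160, 247, 223 and 249 in Mdm2ASO libraries, against 327, 335, 304, 291 and 288 in conASO libraries. Its groups did not overlap, and the log2 fold change was -0.46 (SE 0.13, limma adjusted p = 0.0376). Mrpl44 had 448, 344, 427, 437 and 361 in Mdm2ASO libraries, against 542, 524, 442, 499 and 536 in conASO libraries. Its groups overlapped through 1 library on each side, and the log2 fold change was -0.34 (SE 0.10, limma adjusted p = 0.0470).

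These 7 calls changed when single libraries were left out. The number that rose was 0 without Mdm2ASO replicate 7 or 8 or conASO replicate 2 or 4, 1 without Mdm2ASO replicate 6 or conASO replicate 3, and 2 without Mdm2ASO replicate 9. The number that fell was 0 without conASO replicate 2 and 1 without Mdm2ASO replicate 7, 8 or 9 or conASO replicate 1 or 4. Mrpl50 was the most stable of the 7, with its call lost in 1 of 19 alternatives, and Mrps7 the least, with its call lost in 13.

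**Figure D2:**
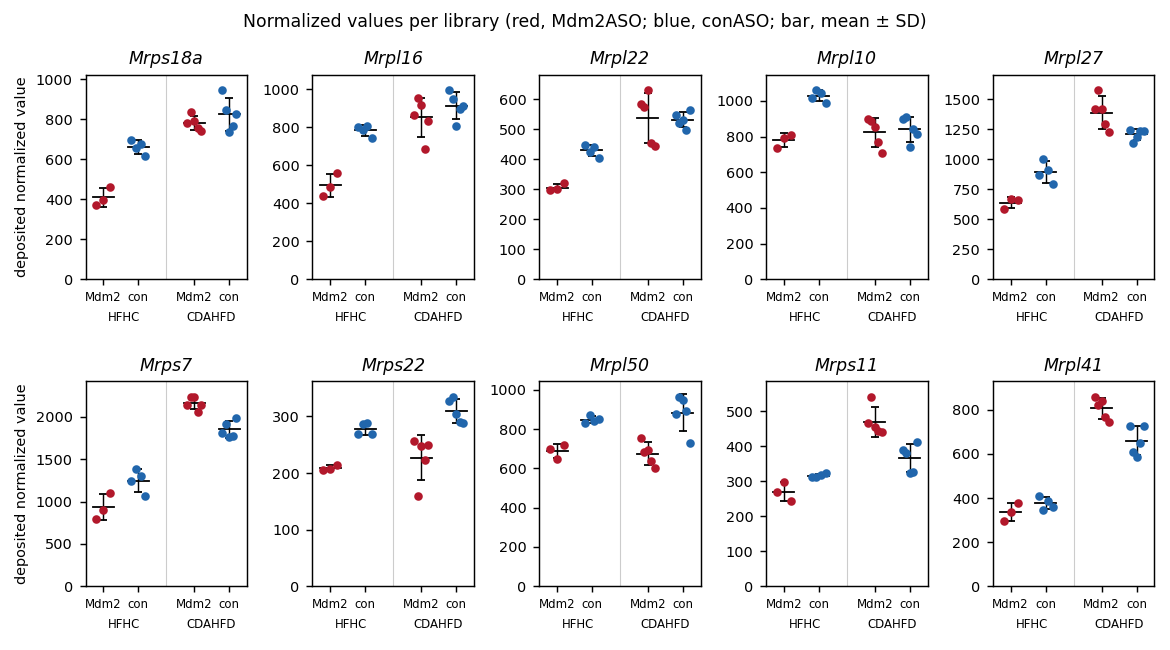
Deposited normalized values of 10 members in every library (points; red, Mdm2ASO; blue, conASO; bars, mean ± SD), with HFHC left and CDAHFD right in each panel; the diets were normalized separately. On HFHC the Mdm2ASO points of Mrps18a (371 to 463) lie below the conASO points (618 to 698), and on CDAHFD those groups overlap.

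Of the 31 members that fell on HFHC, 28 did not pass on CDAHFD, 2 also fell there (Mrpl50 and Mrps22) and 1 rose there (Mrps7), on a diet where 13.0% of all tested genes were called. Mrps7 had 796, 902 and 1102 in Mdm2ASO libraries, against 1244, 1379, 1297 and 1066 in conASO libraries on HFHC. These groups overlapped, since the highest Mdm2ASO library lay above the lowest conASO library, and the log2 fold change was -0.42 (limma adjusted p = 0.0281). That call was lost in 6 of 17 alternatives. Mrpl50 averaged 688 ± 35.0 in Mdm2ASO and 848 ± 18.7 in conASO libraries on HFHC (log2 fold change -0.30, limma adjusted p = 0.00951).

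The difference itself, the CDAHFD effect minus the HFHC effect, was tested for the same 77 members. It was higher than 0 for 25 (32.5%) and lower for 0 in limma at an adjusted p under 0.05, against 9.83% of all 16333 genes tested that were higher and 13.6% that were lower. At an unadjusted p under 0.05 there were 42 members (54.5%), against 35.0% of all genes tested, and edgeR and DESeq2 also called 0 lower. The members' median difference was 0.30 on the log2 scale, beside 0.01 for all genes, and 69 of the 77 were positive. The 25 were 20 of 50 tested large-subunit members (40.0%) and 5 of 26 small-subunit members (19.2%), and the subunits were not tested against each other. Without the HFHC library of Mdm2ASO replicates 6 and 7 the number of members called higher was 11. With quantile normalization it was 44, and 55.4% of all called genes were then higher, against 41.9% with the deposited scaling. With scaling to library totals, an alternative chosen after the data were seen, it was 8, the median of all genes shifted to -0.11 and 26.6% of all called genes were higher. The members' median then lay 0.29 above that of all genes, as it did with the deposited scaling.

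Mrpl27 had the smallest p-value, with a log2 fold change of 0.20 on CDAHFD and -0.48 on HFHC, a difference of 0.68 (SE 0.12, limma adjusted p = 0.000519). On CDAHFD it had 1416, 1577, 1421, 1293 and 1225 in Mdm2ASO libraries, against 1243, 1137, 1186, 1234 and 1230 in conASO libraries, so that 4 of 5 Mdm2ASO libraries lay above every conASO library. Mrpl51, specific to mitochondria, had a log2 fold change of 0.22 on CDAHFD and -0.40 on HFHC, a difference of 0.62 (SE 0.11, limma adjusted p = 0.000519). On HFHC it had 711, 772 and 706 in Mdm2ASO libraries, against 932, 1062, 986 and 870 in conASO libraries, without overlap. Mrps7 had a difference of 0.65 (SE 0.13, limma adjusted p = 0.00140), and Mrps18a one of 0.62 (SE 0.12, limma adjusted p = 0.00128). On CDAHFD Mrps18a averaged 781 ± 36.4 in Mdm2ASO and 824 ± 81.9 in conASO libraries, with overlapping groups and a log2 fold change of -0.07. The calls of Mrpl27, Mrpl51, Mrps7, Mrps18a and Mrps11 held in all 28 alternatives. For Mrpl50 and Mrps22, which fell on both diets, the differences were -0.08 (SE 0.13, limma adjusted p = 0.692) and -0.05 (SE 0.18, limma adjusted p = 0.884).

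Summed over all 78 genes, the level on HFHC was 36665, 39470 and 42490 in Mdm2ASO libraries, against 45579, 48704, 48267 and 45647 in conASO libraries. All 3 Mdm2ASO sums lay below all 4 conASO sums, and their mean was 84.0% of the conASO mean. The large-subunit sum was 83.2% and the small-subunit sum 86.1% of conASO. As a share of all counted reads, the sum of all members was 90.4% of conASO, and 87.8% when reads of mitochondrially encoded genes were left out of the total. On CDAHFD the sum was 73729, 75079, 72106, 64446 and 64517 in Mdm2ASO libraries, against 70563, 66902, 63985, 65405 and 67382 in conASO libraries. These overlapped, with a mean of 104.7% of conASO. In a whole-liver sample, fewer cells of a type and less RNA per cell cannot be told apart.

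**Figure D3:**
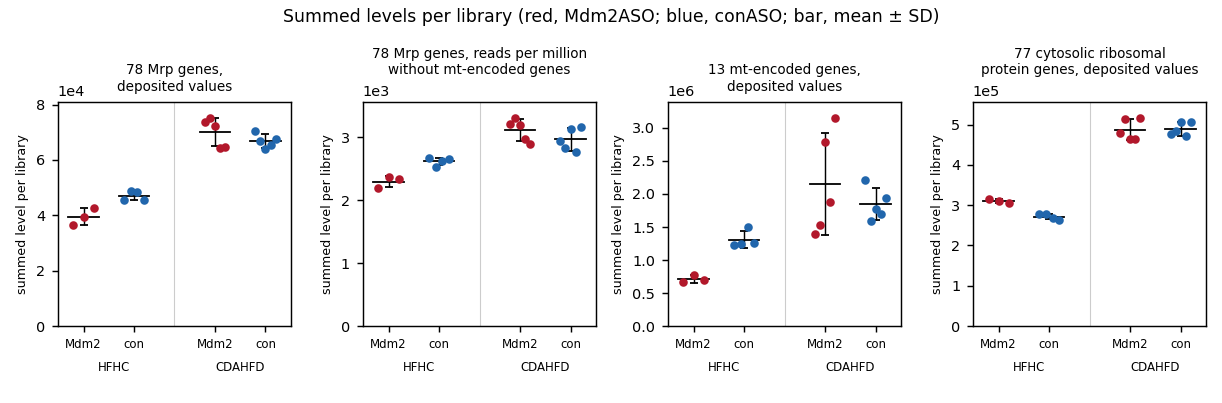
Summed level per library (points; red, Mdm2ASO; blue, conASO; bars, mean ± SD) of the 78 Mrp genes on the deposited scale and scaled to a common total of reads without mitochondrially encoded genes, of the 13 mitochondrially encoded genes and of 77 cytosolic ribosomal protein genes. On HFHC the Mrp sums are 36665 to 42490 in Mdm2ASO and 45579 to 48704 in conASO libraries, and on CDAHFD they overlap.

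The transcripts these ribosomes translate were also lower on HFHC. Of the 13 mitochondrially encoded mRNAs, 10 fell (76.9%, against 13.8% of all tested genes) and 0 rose. The median log2 fold change of the 13 was -0.94, and their summed level in Mdm2ASO libraries was 54.2% of conASO. ND5, a complex I subunit, averaged 53590 ± 5481 in Mdm2ASO and 109760 ± 4774 in conASO libraries (log2 fold change -1.04, limma adjusted p = 0.00274). COX3, a subunit of cytochrome oxidase, averaged 218 ± 38.4 in Mdm2ASO and 365 ± 34.9 in conASO libraries (log2 fold change -0.76, limma adjusted p = 0.00230). Levels thus differed widely among the 13, and low genes such as COX3 add little to the sum. Whether reads of such genes were lost in mapping or counting was not tested. On CDAHFD 1 of the 13 rose (7.69%, against 6.12% of all tested genes). It was ND3, another complex I subunit (log2 fold change 1.16, limma adjusted p = 0.00369). The summed level of the 13 was 117% of conASO there, with overlapping libraries.

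Cytosolic ribosomal protein genes moved the other way on HFHC. Of 77 tested, 31 rose (40.3%) and 0 fell in limma (DESeq2, 36 and 1), against 16.8% and 13.8% of all tested genes. The median log2 fold change of the 77 was 0.20, and it stayed above 0 under quantile normalization (0.26) and scaling to library totals (0.31). Their summed level in Mdm2ASO libraries was 114% of conASO on HFHC. On CDAHFD 0 rose and 3 fell (3.90%), against 6.12% and 6.86% of all tested genes. The median of the 77 was 0.01, and -0.03 under quantile normalization. There DESeq2 gave 2 that rose and 6 that fell, edgeR gave 0 and 3, and 13 (16.9%) had an unadjusted p under 0.05, against 28.2% of all tested genes. The difference between diets was lower than 0 for 23 of these 77 genes (29.9%) and higher for 0 in limma, the opposite of the Mrp genes. Of all genes tested for it, 13.6% were lower and 9.83% higher. The other tools gave 19 and 0 (edgeR) and 25 and 1 (DESeq2).

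The proteins that build and serve the mitochondrial ribosome were examined as lists. Of 5 mitochondrial ribosome proteins without the prefix, 1 fell on HFHC (20%, against 13.8% of all tested genes). It was Gadd45gip1, a large-subunit protein (469 ± 54.1 in Mdm2ASO and 646 ± 39.6 in conASO libraries, log2 fold change -0.47). Of 27 assembly factors 5 fell on HFHC (18.5%) and 0 rose, against 13.8% and 16.8% of all tested genes, with a median of -0.17. At an unadjusted p under 0.05 there were 8 (29.6%), fewer than the 41.2% of all tested genes. Among the 5 that fell, Mterf4, which works with an rRNA methyltransferase on the large subunit, had a log2 fold change of -0.44 (limma adjusted p = 0.00762). Afg3l2, a protease of the inner membrane that matures Mrpl32, had one of -0.33 (limma adjusted p = 0.00791), and Mrm2, an rRNA methyltransferase, one of -0.62 (limma adjusted p = 0.0150). On CDAHFD 1 of the 27 rose (3.70%), Mterf3 (0.47), and 1 fell (3.70%), Mettl15 (-0.64), a small-subunit rRNA methyltransferase. These shares were below the 6.12% of all tested genes that rose there and the 6.86% that fell.

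Of 16 mitochondrial translation factors 3 fell on HFHC (18.8%) and 0 rose, against 13.8% and 16.8% of all tested genes, with a median of -0.21. At an unadjusted p under 0.05 there were 6 (37.5%), against 41.2% of all tested genes. The 3 that fell were the elongation factors Tsfm (log2 fold change -0.66, limma adjusted p = 0.00185) and Gfm1 (-0.53, limma adjusted p = 0.0128) and the initiation factor Mtif2 (-0.34, limma adjusted p = 0.0408). Gfm1 also fell on CDAHFD, with a log2 fold change of -0.49 (limma adjusted p = 0.0284). It was the single call of the list there (6.25%, against 6.86% of all tested genes that fell). Of 17 mitochondrial tRNA synthetases 7 fell on HFHC (41.2%) and 0 rose, against 13.8% and 16.8% of all tested genes. At an unadjusted p under 0.05 there were 7 (41.2%), the same share as among all tested genes (41.2%). Lars2, for leucine, averaged 1142 ± 190 in Mdm2ASO and 4056 ± 1446 in conASO libraries, with a log2 fold change of -1.77 and a wide spread among conASO libraries. Iars2, for isoleucine, fell on HFHC (-0.37) and on CDAHFD (-0.28), and Tars2, for threonine, fell on HFHC (-0.27). On CDAHFD Lars2 rose (0.34), as did Sars2, for serine (0.43). Thus 2 of the 17 rose there (11.8%) and 1 fell (5.88%), against 6.12% and 6.86% of all tested genes. Of the calls on HFHC in these lists, that of Mtif2 was lost in 8 of 17 alternatives, that of Tars2 in 2 and those of Iars2 and Mrm2 in 1 each. On CDAHFD that of Mettl15 was lost in 2 of 19, and those of Gfm1, Iars2, Lars2 and Sars2 in 7, 6, 9 and 11.

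Of 15 genes for transcription and replication of mitochondrial DNA, 4 fell on HFHC (26.7%) and 0 rose, against 13.8% and 16.8% of all tested genes. At an unadjusted p under 0.05 there were 4 (26.7%), against 41.2% of all tested genes. The 3 with the smallest p-values were the mitochondrial RNA polymerase Polrmt (log2 fold change -0.31), the helicase Twnk (-0.37) and the DNA-packaging factor Tfam (-0.30). Twnk shares exon bases with Mrpl43 on the opposite strand. On CDAHFD Hsd17b10 rose (0.52) and Trmt10c fell (-0.43), which are both subunits of mitochondrial RNase P. Each was 1 of the 15 (6.67%), against 6.12% of all tested genes that rose and 6.86% that fell. Of 9 regulators of mitochondrial biogenesis 0 passed on HFHC in limma, edgeR or DESeq2, and 0 had an unadjusted p under 0.05. On CDAHFD 2 of the 9 rose (22.2%), the nuclear receptor Esrra (0.50, limma adjusted p = 0.00186) and Myc (0.98, limma adjusted p = 0.0376), the second with overlapping groups. The calls of Twnk and Tfam were each lost in 5 of 17 alternatives and that of Polrmt in 2. Those of Hsd17b10, Myc and Trmt10c were lost in 7, 10 and 2 of 19.

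**Figure D4:**
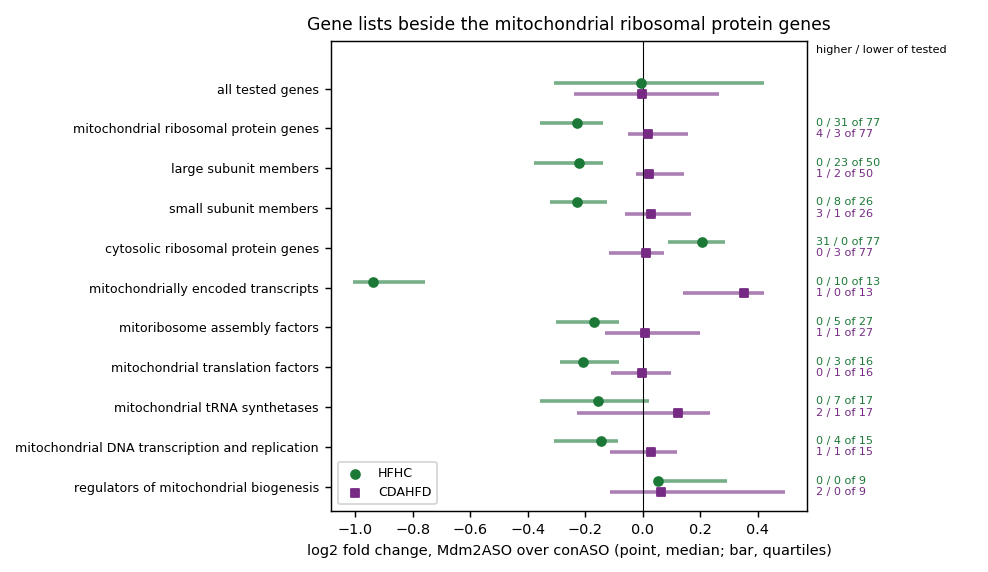
Median log2 fold change (Mdm2ASO over conASO; bars, quartiles) of the members and of the other lists on HFHC (circles) and CDAHFD (squares), with the number higher and lower of those tested at the right. The Mrp genes have a median of -0.23 on HFHC and 0.02 on CDAHFD, and the cytosolic ribosomal protein genes 0.20 and 0.01.

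Markers of other cell types also moved on HFHC, and their part in the Mrp result was not tested. Of all 64 markers, those of hepatocytes included, 35 rose and 4 fell in limma, on a diet where 16.8% of all tested genes rose and 13.8% fell. Of 10 monocyte and neutrophil markers 8 rose, and their summed level was 11453 to 13496 in Mdm2ASO libraries, against 1148 to 1640 in conASO libraries. All 7 red blood cell markers rose (11572 to 31522 in Mdm2ASO, against 2604 to 5422 in conASO libraries), as did all 6 stellate cell markers (14726 to 16097, against 7756 to 10394). Of 8 Kupffer cell and macrophage markers 4 rose, of 5 B cell markers 4, of 6 T and NK cell markers 2 and of 6 sinusoidal endothelial markers 4. Of 6 cholangiocyte markers 4 fell (1890 to 2714 in Mdm2ASO, against 3519 to 11314 in conASO libraries). Of 10 hepatocyte markers 0 passed in limma, and 0 had an unadjusted p under 0.05. DESeq2 gave 2 that rose and 2 that fell, and edgeR 0. On the deposited scale the hepatocyte sums overlapped (1399019 to 2034210 in Mdm2ASO, against 1164365 to 1455542 in conASO libraries). Their mean there was 128.8% of conASO. As a share of all counted reads, every Mdm2ASO hepatocyte sum lay above every conASO sum, with a mean of 139.6% of conASO. The median log2 fold change of the 10 hepatocyte markers was -0.12, with 6 negative and 4 positive values. On CDAHFD, where 13.0% of all tested genes passed, 4 of the 63 markers tested did. They were 1 each for hepatocytes, macrophages (fell), B cells and stellate cells. No cholangiocyte marker passed there, but 5 of 6 (83.3%) had an unadjusted p under 0.05, against 28.2% of all tested genes. The median log2 fold change of these 6 was 1.07. Their difference between diets was higher for 5 of 6 (83.3%) in limma, against 9.83% of all genes tested.

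Levels were also divided by exonic length, as a description. That length merges all annotated exons of a gene, so it can exceed the expressed mRNA and make a level look low. It was 949 bases for Mrpl14 and 5450 for Mrpl19, and the order of genes depends on it. Per kilobase, conASO levels of the members on HFHC ran to 1194 ± 131 for Mrpl14, 1047 ± 84.4 for Mrpl18 and 1033 ± 42.8 for Mrpl12 (SD, n = 4). These 3 overlapped in their libraries. Their median over the 78 members was 221 per kilobase. The lowest that were detected were Mrps25 (44.5 ± 3.67) and Mrpl19 (42.4 ± 0.806). On CDAHFD the highest were Mrpl12 (2049 ± 155), Mrpl34 (1829 ± 241) and Mrpl14 (1545 ± 64.3), and the lowest again Mrps25 (55.8 ± 6.73) and Mrpl19 (49.2 ± 1.25) (SD, n = 5). Of the highest on HFHC, Mrpl14 fell with a log2 fold change of -0.49 (limma adjusted p = 0.0149) and Mrpl18 with one of -0.38 (limma adjusted p = 0.00612). Mrpl34 fell with one of -0.54 (limma adjusted p = 0.0133). Of the lowest, Mrps25 fell on HFHC (-0.40, limma adjusted p = 0.0158), and Mrpl19 had a log2 fold change of -0.12 (limma adjusted p = 0.360). On CDAHFD none of Mrpl12, Mrpl14, Mrpl18, Mrpl19, Mrpl34 and Mrps25 passed, with limma adjusted p from 0.738 to 0.972.

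By the GENCODE M21 annotation, 23 members share exon bases with another gene, 4 of them on the same strand and 20 on the opposite strand. Mrps11 and Mrpl46 overlap each other on opposite strands. The library kit was strand-specific, but the strand setting of the counting is not given in the sources used here, so reads of these 23 are uncertain. Among the 54 tested members with no such overlap, 21 fell (38.9%) and 0 rose on HFHC, with a median of -0.21. The shares of all tested genes there were 13.8% that fell and 16.8% that rose. On CDAHFD 2 of these 54 rose and 2 fell (3.70% each), against 6.12% and 6.86% of all tested genes. The difference between diets was called for 18 (33.3%), all higher, against 9.83% of all genes tested that were higher. Of the members named with calls, Mrpl27, Mrpl14, Mrpl18, Mrpl44, Mrpl51, Mrps7, Mrps11 and Mrps25 are among the 23.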

How the data were processed

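Liver RNA was sequenced with a strand-specific mRNA kit, per the labels' protocols. The submitters' processing notes name STAR 2.7.10b, featureCounts (Subread 2.0.3) and the build GRCm39. The authors deposited 1 table for each diet of counts scaled by library, a signal per gene that is not divided by gene length. Dividing each column by 1 constant gave whole numbers, within 0.01, for 100% of values, and these recovered reads gave the depths and served the count tests. No column belonged to another series.

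Values entered limma 3.58.1 with a trend as log2(value + 0.5), separately for each diet, over genes that reached 1 in a number of libraries no smaller than the smaller group. Another fit, over both tables, tested the difference of the effects. P-values were two-sided and adjusted by Benjamini-Hochberg over all tested genes, with a threshold of 0.05. Fold changes are on that log2 scale and understate the change of low genes. Identical columns were merged. The fits were checked on simulated counts with planted changes of 1 and 2 on the log2 scale. These were larger than any change of a member, so recovery of changes as small as the members' was not checked. Alternatives were pseudocounts of 1 and 2, no filter or a minimum of 10, quantile normalization, scaling to library totals, edgeR 4.0.16, DESeq2 1.42.0, limma without the trend, the identical columns kept apart, a replicate block and leaving out each library. For the difference, the library totals, no filter, limma without the trend, the identical columns and DESeq2 were added after the data were seen. Only the difference had the replicate block.

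The members and lists were chosen with earlier results of these data known, and some symbols in the lists were respelled to the files' spelling. Named by rule were up to 6 called members in each direction by p for each diet, up to 4 for the difference, 13 members by role, the 3 highest and lowest per kilobase, and up to 3 called genes per list and diet. Exonic lengths and overlaps came from GENCODE M21, matched by Ensembl ID for 96.6% of genes. Its build is GRCm38, as is that of the RefSeq promoters, so their coordinates are not those of the counting.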

Additional observations from a re-analysis of the deposited data

Results flagged for a closer look

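For 14 of the 29 members named by rule, the Mdm2ASO effect differed between diets in limma (CDAHFD effect minus HFHC effect, log2). Among all 16333 genes tested for it, 23.5% were called. Some members were named for a small p in this same test or on 1 diet, so the number 14 depends on that choice. The differences were 0.68 for Mrpl27, 0.62 for Mrpl51, 0.62 for Mrps18a, 0.65 for Mrps7, 0.59 for Mrps11, 0.57 for Mrpl16 and 0.48 for Mrpl14. For the others they were 0.49 for Mrpl22, 0.46 for Mrpl41, 0.49 for Mrps21, 0.41 for Mrpl58, 0.37 for Mrpl10, 0.56 for Mrpl34 and 0.36 for Mrpl11. Adjusted p ran from 0.000519 (Mrpl27 and Mrpl51) to 0.0479 (Mrpl11).

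In 87 groups of 4 or 5 libraries, 4 held a library whose gap to its nearest neighbour passed the 95% limit of Dixon's test, and chance alone flags about 1 group in 20. Mrpl44 had 364 in conASO replicate 1 on HFHC, below 386 to 390 in the other conASO libraries. Mrps11 had 541 in Mdm2ASO replicate 7 on CDAHFD, above 441 to 465 in the other Mdm2ASO libraries. Mdm2 itself had 861 in Mdm2ASO replicate 6 on CDAHFD, above 564 to 646 in the other Mdm2ASO libraries. It also had 907 in conASO replicate 1 on HFHC, below 954 to 963 in the other conASO libraries.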

How the results depend on the processing

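The members that fell on HFHC numbered 31 as reported, 49 with quantile normalization, 16 with scaling to library totals (where 1 rose) and 20 in limma without the trend, and 19 to 41 when 1 library was left out. Their median log2 fold change of -0.23 was -0.31 with quantile normalization, -0.12 with scaling to library totals and -0.29 to -0.17 with 1 library left out. On CDAHFD the members that rose numbered 4 as reported, 2 with no filter and 0 both in limma without the trend and with scaling to library totals, and 0 to 4 with 1 library left out. Those that fell numbered 3 as reported, 1 in limma without the trend and 0 to 3 with 1 library left out, and the median was 0.0066 to 0.080 with 1 library left out. The differences between diets called higher numbered 25 as reported, 44 with quantile normalization (median 0.40), 8 with scaling to library totals (median 0.18, a setting chosen after seeing the data) and 11 to 32 with 1 library left out. The summed level on HFHC, 84.0% of conASO, was 90.4% as a share of all counted reads and 87.8% as a share of those without mitochondrially encoded genes, the second chosen after seeing the data. The cause of these changes was not tested.

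No paired analysis was possible because Mdm2ASO and conASO share no replicate number within a diet. Numbers are shared between diets, where the deviations of 7 same-numbered pairs correlated between -0.07 and 0.11, so they were not taken as pairs. With the replicate block the differences called higher numbered 6, and the block gave -0.066 for the difference of Mrpl19 and 0.061 for that of Mrps22.

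Some effects that passed in no such setting changed sign. With quantile normalization these were Mrps18b (-0.080) and Mrps30 (-0.010) on HFHC, Mrpl12 (0.0065) and Mrpl14 (0.0085) on CDAHFD, and the differences of Mrps22 (0.13) and Mrps30 (0.040). With scaling to library totals they were Mrpl3 (-0.00088), Mrpl22 (-0.0084) and Mrps30 (-0.0050) on CDAHFD, and the differences of Mrpl19 (-0.048) and Mrps36 (-0.020). Mrpl12 on CDAHFD was 0.0085 in DESeq2 and 0.0063 in edgeR. With 1 library left out, Mrps18b ranged from -0.12 to 0.14 and Mrps30 from -0.0066 to 0.15 on HFHC. On CDAHFD the ranges were -0.057 to 0.083 for Mrpl3, -0.078 to 0.020 for Mrpl10, -0.061 to 0.053 for Mrpl12, -0.057 to 0.017 for Mrpl14 and -0.18 to 0.046 for Mrpl18. They were -0.11 to 0.055 for Mrpl19, -0.059 to 0.068 for Mrpl22, -0.073 to 0.078 for Mrpl34, -0.0028 to 0.17 for Mrps25 and -0.073 to 0.065 for Mrps30. The differences ranged from -0.26 to 0.011 for Mrps18b, -0.096 to 0.074 for Mrps22, -0.17 to 0.013 for Mrps30 and -0.044 to 0.23 for Mrps36.

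Of 17 named members called on HFHC 11 held in all 17 alternatives, of 7 on CDAHFD 0 held in all 19, and of 14 for the difference 5 held in all 28. With 3 Mdm2ASO libraries on HFHC, small changes there rest on few samples.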
